A study of Homo sapiens with 9 samples.

Results

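NF-kappaB is a family of dimeric transcription factors that switches on chemokines, cytokines, adhesion molecules and its own inhibitors. The genes described are 40 members of this pathway, its classical targets and chemokines, chosen by name from the 27800 gene symbols of the deposited table. They were chosen with earlier results of these data known. Of these 40 genes, 32 reached at least 1 TPM (a transcript abundance corrected for gene length and scaled to the same total in each library) in at least 3 of the 9 libraries and were tested. The libraries hold total RNA of Huh7 cells, an established line from a human liver cancer, grown in DMEM with 10% FBS. They fall into 3 groups of 3: vehicle, 5 uM FIDAS-5 for 48 h and 0.5 uM JQ1 for 48 h. FIDAS-5 inhibits MAT2A, the enzyme that makes the methyl donor S-adenosylmethionine, and JQ1 blocks the bromodomains of the BET proteins, which bind acetylated histones. The study asked how each compound changes the transcriptome of this single line. The solvent and the exposure time of the vehicle cells are not given in the sources used here. Replicates are not described as independent cultures, and the p-values refer to the scatter of these libraries alone, which may be technical.

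In resting cells the Rel family dimers are held in the cytoplasm by IkappaB proteins. Receptors for TNF, IL-1 or bacterial products activate a kinase complex that marks IkappaB for destruction, and the freed dimers bind kappaB sequences in promoters and enhancers. A second, noncanonical branch runs through MAP3K14 and leads to dimers of NFKB2 and RELB. Hepatocytes and liver cancer cells use the pathway for acute phase, chemokine and survival responses, and many of its targets, such as NFKBIA and TNFAIP3, feed back to end the signal.

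After FIDAS-5, 17 of the 32 tested genes rose and 0 fell, beside 12.6% of all 13573 tested genes that rose and 7.60% that fell. CXCL8, IL32, NFKB2, CXCL1 and ICAM1 were among those that rose, by 2.60 to 5.82 times in mean TPM. After JQ1, 12 of the 32 fell and 3 rose, beside 19.4% and 19.0% of all tested genes. CCL20, CXCL5, ICAM1 and IL32 fell by 4.13 to 10.8 times in mean TPM, whereas NFKBIZ rose 4.10 times. Between the compounds, 18 of the 32 were lower with JQ1 than with FIDAS-5 and 1 was higher, beside 18.5% and 16.4% of all tested genes. Genes were called at an adjusted p under 0.05 (limma on log2(TPM + 1), two-sided, Benjamini-Hochberg over all genes tested), and every log2 fold change below is on that scale, which understates the change of genes at a few TPM. Both compounds were set against the same 3 vehicle libraries, so their values stand side by side and are not independent.

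The libraries carried the markers of a hepatocyte-derived line. The 7 hepatocyte markers summed to 4570 to 5660 TPM with vehicle, 3710 to 5510 TPM with FIDAS-5 and 8470 to 12100 TPM with JQ1. With JQ1, 5 of them rose and TTR fell, and their part in the falls described here was not tested. Within a group, libraries correlated at 0.952 to 0.975 over the tested genes. Their departures from the group mean followed the GC content of the genes, with Spearman coefficients across genes from -0.65 to 0.64. The FIDAS-5 and JQ1 libraries numbered 3 leaned to GC-rich genes and the other 4 treated libraries to GC-poor ones. FIDAS-5 library 1 was the highest of its group for 25 of the 32 tested genes and JQ1 library 3 the lowest of its group for 22, while protein-coding genes held 33.2% of the TPM in the former against 28.3% and 28.6% in its group and 27.7% in the latter against 33.5% and 34.1%. Like counts over all tested genes were not made, so the 25 and 22 cannot be read as particular to these genes. The differences between libraries bear on small changes, and their part in any single result was tested only by the settings given beside it. In bulk RNA, fewer cells expressing a gene and less RNA per cell cannot be told apart.

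The promoters show which of these genes carry the sequence that Rel dimers are known to bind. RefSeq promoter windows (GRCh38.p14, 250 bases before to 50 after each annotated start) were at hand for 34 of the 40 genes, with 53 windows in all. They were searched on both strands for the kappaB consensus and for the shorter form GGANTTTCC, which overlaps it. Either form was found in 29 of 53 windows (54.7%), beside 12.1% of all 35116 promoter windows of the same length. Windows of the same gene can overlap and repeat a site, as for LTB and MAP3K8. Counted by gene, 23 of the 34 held either form, beside 14.2% of all genes with a window. GGANTTTCC alone was in 39.6% of the windows and in 1.64% of all promoters. A match describes letters and is no evidence of binding. The sites below are 30 bases each, 5′ to 3′ on the gene's strand, with the matches in capitals. They are shown for chemokines and effectors that changed with a compound, for CXCL3, their close copy that was too low to be tested, and for NFKBIA and TNFAIP3, which carry matches and were not called with either compound.
CXCL1 (chr4:73869304-73869333, plus strand): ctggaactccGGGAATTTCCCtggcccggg
CXCL2 (chr4:74099254-74099283, minus strand): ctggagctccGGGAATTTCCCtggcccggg
CXCL3 (chr4:74038749-74038778, minus strand): ctggagctccGGGAATTTCCCtggcccggc
CXCL5 (chr4:73998749-73998778, minus strand): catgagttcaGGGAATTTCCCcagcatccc
CXCL8 (chr4:73740467-73740496, plus strand): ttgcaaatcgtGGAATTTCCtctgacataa
CXCL10 (chr4:76023655-76023684, minus strand): gaggagcagaGGGAAATTCCgtaacttgga
ICAM1 (chr19:10270923-10270952, plus strand): tgctttagcttGGAAATTCCggagctgaag
IL32 (chr16:3065294-3065323, plus strand): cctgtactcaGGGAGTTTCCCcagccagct
NFKB2 (chr10:102394461-102394490, plus strand): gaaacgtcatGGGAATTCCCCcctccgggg
NFKBIA (chr14:35404811-35404840, minus strand): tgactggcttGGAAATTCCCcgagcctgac
TNFAIP3 (chr6:137867188-137867217, plus strand): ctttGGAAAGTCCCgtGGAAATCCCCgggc

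CXCL1, CXCL2, CXCL3 and CXCL5 hold the same 11 capitals, beginning at positions -91 to -78 from the start. Across the 300 bases, the windows of CXCL1 and CXCL3 were identical at 68.7% of positions, and those of CXCL1 and CXCL2 at 51.7%. The comparison allowed no gaps, so an inserted or missing base lowers these figures. CXCL8, CXCL5, CXCL3, CXCL2 and CXCL1 lie within 358627 bases of chromosome 4 (chr4:73740569-74099195), so their neighbourhood is shared as well. CXCL10 lies farther along the same chromosome, starting from chr4:76023497 on the minus strand. The NFKB2 site belongs to the second of its 3 annotated starts. CCL20 and NFKBIZ are given as 80-base stretches because they stand at the opposite ends of the JQ1 comparison, CCL20 with the largest fall of the 32 on the log2(TPM + 1) scale and NFKBIZ with the largest rise. In the ratio of mean TPM, CCR1, at a lower level, fell further than CCL20.
CCL20 (chr2:227813722-227813801, plus strand): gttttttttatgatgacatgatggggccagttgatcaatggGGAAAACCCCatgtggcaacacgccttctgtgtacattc
NFKBIZ (chr3:101827760-101827839, plus strand): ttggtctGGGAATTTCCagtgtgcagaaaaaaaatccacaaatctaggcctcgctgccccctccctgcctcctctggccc

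The capitals of CCL20 match the kappaB consensus only, and those of NFKBIZ match both forms, in the window of its first annotated start. Of the 17 genes that rose with FIDAS-5, 15 had a promoter window and 12 of these held a match (NFKBIB, TNIP1 and MAP3K8 beside the genes above). TNFAIP2, IKBKG and MAP3K14 rose without one. Of the genes not called with FIDAS-5, 13 had a window and 7 held a match. With JQ1, a match was found in 7 of 10 genes that fell, 1 of 3 that rose and 11 of 15 that were not called. Matches thus occurred among genes that were called and among those that were not, and the windows say nothing of more distant sequence.

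**Figure D1:**
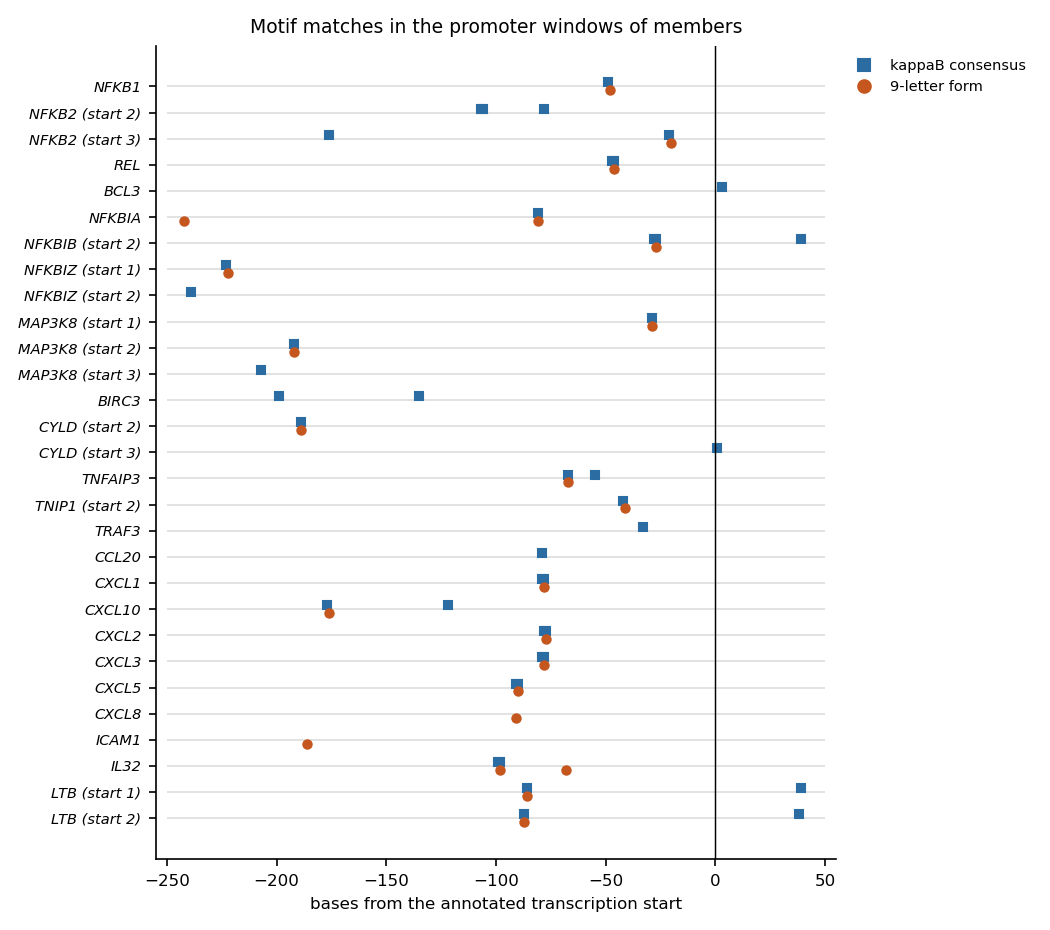
Positions of the kappaB consensus (squares) and of GGANTTTCC (circles, labelled 9-letter form) in the promoter windows that hold a match; the x axis is bases from the annotated start and each row is 1 window. The CXC chemokine matches other than those of CXCL10 begin at positions -91 to -77, whereas those of ICAM1 and NFKBIZ lie farther upstream.

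The chemokines and the receptor CCR1 were taken as a group, which mostly rose with FIDAS-5 and fell with JQ1. Of 9 genes in this group 7 were tested. With FIDAS-5, 5 rose (71.4%), beside 12.6% of all tested genes. With JQ1, 5 fell (71.4%), including CCR1 but not CXCL2 or CXCL10, beside 19.4%. Each of the 7 was lower with JQ1 than with FIDAS-5, beside 18.5% of all tested genes. CXCL10 passed the filter through FIDAS-5 libraries only, CXCL2 without vehicle libraries and CCR1 without JQ1 libraries. Their places in these counts were therefore partly built in. CXCL8, which draws neutrophils through CXCR1 and CXCR2, stood at 4.58, 3.05 and 3.54 TPM with vehicle. With FIDAS-5 it stood at 26.5, 17.7 and 20.9 TPM. With JQ1 it stood at 0.768, 1.87 and 0.830 TPM. No library of one group reached the range of another, and FIDAS-5 libraries were high throughout. CXCL8 rose with FIDAS-5 by 2.26 ± 0.23 (log2 fold change ± SE, adjusted p = 0.000298, limma), 5.82 times in mean TPM, and fell by 1.16 ± 0.23 with JQ1 (adjusted p = 0.00426). The difference between JQ1 and FIDAS-5 was -3.41 ± 0.23 (adjusted p = 1.11e-05), with means of 1.15 ± 0.617 and 21.7 ± 4.43 TPM (SD, n = 3).

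CXCL1, another ligand of CXCR2, showed the same order of the groups as CXCL8. Its values were 3.35, 3.04 and 3.11 TPM with vehicle, 11.9, 9.43 and 11.1 TPM with FIDAS-5, and 1.42, 1.84 and 1.23 TPM with JQ1. The 3 groups did not overlap. CXCL1 rose by 1.5 ± 0.14 with FIDAS-5 (log2, adjusted p = 0.000176) and fell by 0.75 ± 0.14 with JQ1 (adjusted p = 0.00300). CXCL2, a close relative, stood at 0.403 to 0.993 TPM with vehicle and at 3.15 to 3.54 TPM with FIDAS-5, and rose by 1.33 ± 0.15 (log2, adjusted p = 0.000535). No vehicle library of CXCL2 reached 1 TPM, so it too passed the filter through FIDAS-5 and JQ1 libraries. With JQ1 it stood at 1.04 to 1.31 TPM, above each vehicle library, without passing the test (log2 fold change 0.35 ± 0.15, adjusted p = 0.0978), while CXCL1 fell. CXCL3 was too low to be tested, at 0.0648 to 0.437 TPM with vehicle, 0.658 to 1.26 TPM with FIDAS-5 and 0.113 to 0.621 TPM with JQ1. Its FIDAS-5 libraries lay above the others. CXCL1, CXCL2 and CXCL3 are near-identical copies, so that reads may be shared between them and their separate levels are uncertain.

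CXCL5, a further ligand of CXCR2, rose with FIDAS-5 and fell with JQ1. It stood at 10.6, 16.2 and 14.5 TPM with vehicle, 34.7, 27.7 and 22.8 TPM with FIDAS-5, and 2.03, 2.21 and 0.857 TPM with JQ1. The groups did not overlap. The fall with JQ1 was 2.47 ± 0.25 (log2, adjusted p = 0.000145), 8.11 times in mean TPM. The rise with FIDAS-5 was 0.99 ± 0.25 (adjusted p = 0.0247); it missed the threshold without vehicle library 1 or 3, without FIDAS-5 library 1 or 2, and with a pseudocount of 0.1, with adjusted p up to 0.0833.

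CCL20, the ligand of CCR6 and with vehicle the most abundant chemokine of the 40 genes, fell with JQ1. It stood at 66.4, 114 and 89.1 TPM with vehicle, 122, 132 and 109 TPM with FIDAS-5, and 10.4, 8.63 and 5.95 TPM with JQ1. The JQ1 libraries lay far below all others, while vehicle and FIDAS-5 libraries overlapped. CCL20 fell by 3.28 ± 0.23 with JQ1 (log2, adjusted p = 2.58e-05), 10.8 times in mean TPM. With FIDAS-5 the difference was 0.46 ± 0.23 (adjusted p = 0.213); after removal of the GC trend within each library it was 0.71 (adjusted p = 0.0220).

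CCR1, a receptor for CCL3 and CCL5, was likewise called against vehicle with JQ1 and not with FIDAS-5. Its levels were 2.52 to 3.40 TPM with vehicle, 2.04 to 2.83 TPM with FIDAS-5 and 0.0598 to 0.123 TPM with JQ1. The JQ1 libraries were all low, and the fall was 1.86 ± 0.14 (log2, adjusted p = 3.29e-05). None of them reached 1 TPM, so the differences of CCR1 with JQ1 were partly built into its being tested. The difference with FIDAS-5 was -0.16 ± 0.14 (adjusted p = 0.467), and the 2 compounds differed by -1.71 ± 0.14 (JQ1 against FIDAS-5, adjusted p = 3.48e-05). CXCL10, the ligand of CXCR3 and a gene also induced by interferon, passed the filter through its FIDAS-5 libraries only, so its difference was built into its being tested. It stood at 0.330 to 0.774 TPM with vehicle, 2.31 to 4.26 TPM with FIDAS-5 and 0.107 to 0.195 TPM with JQ1. The JQ1 difference from vehicle of -0.44 ± 0.18 missed the threshold (adjusted p = 0.0922), and was -0.92 (adjusted p = 0.00477) when TPM were rescaled to protein-coding genes only. Without CXCL10, 16 of 31 tested genes rose with FIDAS-5, and 17 of 31 were lower with JQ1 than with FIDAS-5. The 16 still include CXCL2 and MAP3K14, which had no vehicle library at 1 TPM. The 17 still include CCR1, RELB and IKBKE, which had no JQ1 library at 1 TPM. CCL2, a monocyte attractant, was listed at 0 in 8 libraries and at 0.127 TPM in FIDAS-5 library 3.

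**Figure D2:**
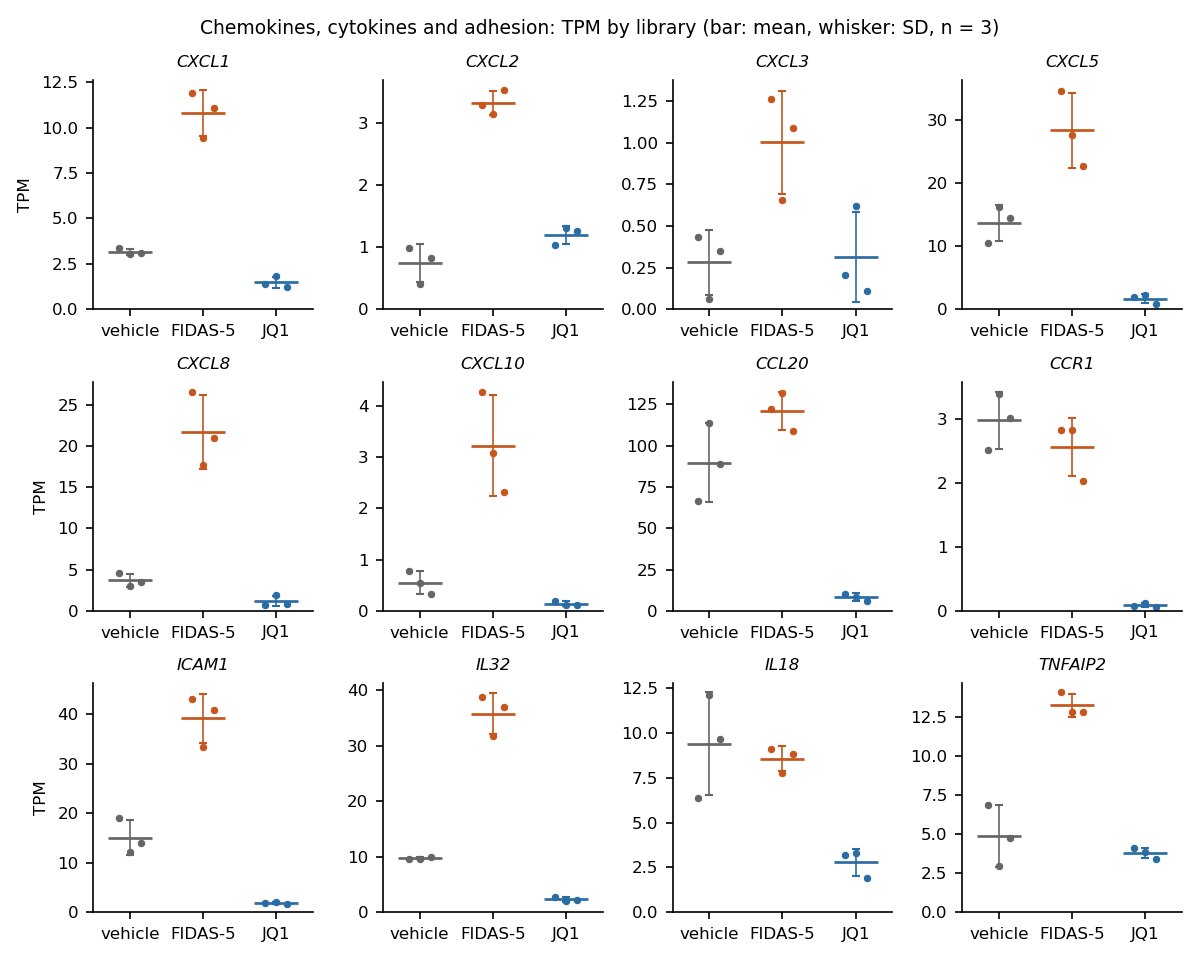
TPM of 12 chemokine, receptor, cytokine and adhesion genes in each library (points), with the group mean (bar) and SD (whisker, n = 3); each panel has its own linear y axis from 0. JQ1 libraries are lowest for CXCL8, CXCL5, CCL20, CCR1, ICAM1, IL32 and IL18, and FIDAS-5 libraries are highest for CXCL8, CXCL1, CXCL2, ICAM1, IL32 and TNFAIP2.

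Among cytokines, receptors and adhesion genes, 5 of 8 were tested. With FIDAS-5, 3 rose (60%), beside 12.6% of all tested genes. With JQ1, 3 fell (60%), beside 19.4%. Between the compounds, 4 were lower with JQ1 than with FIDAS-5 (80%), beside 18.5% of all tested genes. ICAM1, the endothelial and epithelial ligand of leukocyte integrins, stood at 19.1, 12.1 and 14.1 TPM with vehicle. With FIDAS-5 it stood at 43.1, 33.5 and 40.9 TPM, and with JQ1 at 1.93, 2.15 and 1.68 TPM. The groups were fully apart. ICAM1 rose by 1.34 ± 0.18 with FIDAS-5 (log2, adjusted p = 0.00125) and fell by 2.44 ± 0.18 with JQ1 (adjusted p = 2.96e-05), so that the means with the 2 compounds differed 20.4 times (adjusted p = 1.67e-06).

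IL32, an inflammatory cytokine that primates but not rodents carry, changed with both compounds. It stood at 9.61, 9.61 and 9.93 TPM with vehicle, 38.7, 31.7 and 36.9 TPM with FIDAS-5, and 2.84, 2.01 and 2.20 TPM with JQ1. No groups overlapped. IL32 rose by 1.77 ± 0.14 with FIDAS-5 (log2, adjusted p = 7.10e-05) and fell by 1.69 ± 0.14 with JQ1 (adjusted p = 4.49e-05), changes of like size in opposite directions. TNFAIP2, a TNF-induced gene linked to membrane nanotubes, stood at 6.89, 2.98 and 4.78 TPM with vehicle, 14.1, 12.8 and 12.8 TPM with FIDAS-5, and 4.12, 3.84 and 3.44 TPM with JQ1. Its FIDAS-5 libraries were high and its JQ1 libraries lay within the vehicle range. TNFAIP2 rose by 1.33 ± 0.22 with FIDAS-5 (log2, adjusted p = 0.00359), and the JQ1 difference was -0.24 ± 0.22 (adjusted p = 0.426), or -0.47 (adjusted p = 0.0262) with the GC trend removed.

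IL18, an inflammasome-processed cytokine, followed CCL20 and CCR1 in being called against vehicle with JQ1 and not with FIDAS-5. Its values were 6.39, 12.1 and 9.66 TPM with vehicle, 9.07, 7.75 and 8.79 TPM with FIDAS-5, and 3.17, 3.28 and 1.91 TPM with JQ1. The JQ1 libraries were below all others, and the fall was 1.44 ± 0.23 (log2, adjusted p = 0.00141). The vehicle and FIDAS-5 libraries overlapped (-0.08 ± 0.23, adjusted p = 0.832), and JQ1 was lower than FIDAS-5 by a log2 difference of -1.35 (adjusted p = 0.00203). IL6R, the IL-6 receptor, ranged from 2.62 to 5.24 TPM and was called in no comparison as fitted. Without JQ1 library 3 it was called higher with JQ1 than with vehicle. TNF and CD40, a ligand and a receptor upstream of the pathway, were listed at 0 in all 9 libraries. LTB, a subunit of lymphotoxin, was at 0.132 TPM or lower. An exact 0 in TPM can be a failed estimate and sets no limit on expression.

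Of the 5 Rel subunits, NFKB2 and RELB, the pair of the noncanonical branch, rose with FIDAS-5, and RELB fell with JQ1. These were 40% and 20% of the subunits, beside 12.6% and 19.4% of all tested genes, so the JQ1 share was near that of all genes. NFKB2, the precursor of p52, stood at 4.24, 2.44 and 2.74 TPM with vehicle, 12.5, 9.01 and 12.5 TPM with FIDAS-5, and 1.97, 1.95 and 1.86 TPM with JQ1. All FIDAS-5 libraries were high, and the JQ1 libraries lay just below the vehicle range. NFKB2 rose by 1.59 ± 0.19 with FIDAS-5 (log2, adjusted p = 0.000658), 3.62 times in mean TPM. The JQ1 difference of -0.48 ± 0.19 missed the threshold (adjusted p = 0.0753) and passed it after quantile normalization, among protein-coding genes only and after removal of the GC trend, where it was -0.75 (adjusted p = 0.000789).

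RELB, its usual partner, was low: 0.597 to 1.32 TPM with vehicle, 2.48 to 3.65 TPM with FIDAS-5 and 0.235 to 0.487 TPM with JQ1. The groups did not overlap. None of the JQ1 libraries reached 1 TPM, so the fall of RELB with JQ1 was partly built into its being tested. RELB rose by 1.02 ± 0.18 with FIDAS-5 (log2, adjusted p = 0.00443). It fell by 0.57 ± 0.18 with JQ1 (adjusted p = 0.0324), a call lost without vehicle library 1 or 3, without JQ1 library 2 or 3 and with quantile normalization (adjusted p up to 0.109). NFKB1, the precursor of p50, stood at 8.68 to 11 TPM with vehicle, 7.81 to 11.4 TPM with FIDAS-5 and 7.64 to 9.25 TPM with JQ1. RELA, the main transactivating subunit, stood at 14.8 to 27.0, 25.6 to 31.4 and 27.6 to 28.8 TPM, with vehicle library 2 lowest. REL stood at 2.03 to 2.81, 1.21 to 2.55 and 1.65 to 3.27 TPM in the same order. None of NFKB1, RELA and REL was called in any of the 3 comparisons as fitted; without vehicle library 1, RELA was called higher with FIDAS-5 (0.67, adjusted p = 0.0319) and with JQ1 (0.64, adjusted p = 0.0222). REL was called higher with JQ1 than with FIDAS-5 when the GC trend was removed (0.32, adjusted p = 0.0340) and without JQ1 library 3 (0.62, adjusted p = 0.0462).

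**Figure D3:**
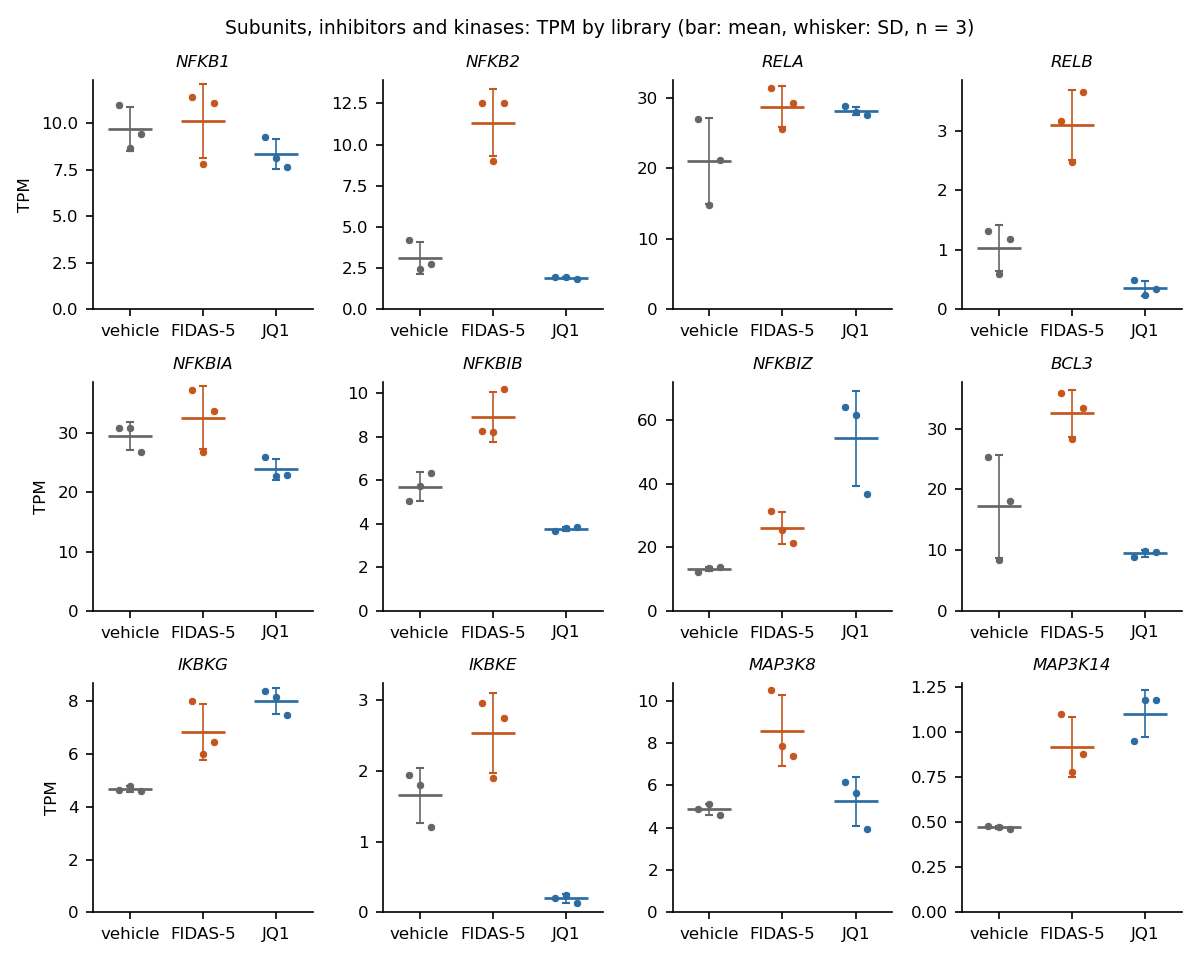
TPM of 12 Rel subunit, IkappaB and kinase genes in each library (points), with the group mean (bar) and SD (whisker, n = 3); each panel has its own linear y axis from 0. NFKB2 and RELB are highest with FIDAS-5, NFKBIZ is highest with JQ1, IKBKE is lowest with JQ1, and NFKB1 overlaps between the groups.

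The IkappaB family held the gene that rose most with JQ1. Of its 5 members 3 rose with FIDAS-5 (60%), beside 12.6% of all tested genes. With JQ1, 1 rose and 1 fell (20% each), near the 19.0% and 19.4% of all tested genes. NFKBIZ, a nuclear IkappaB that acts as a coactivator of a subset of NF-kappaB targets, stood at 12.4, 13.6 and 13.7 TPM with vehicle. With FIDAS-5 it stood at 31.3, 25.4 and 21.4 TPM, and with JQ1 at 64.1, 61.8 and 36.9 TPM. Each JQ1 library exceeded each FIDAS-5 library, and each of these exceeded vehicle. NFKBIZ rose by 1.92 ± 0.22 with JQ1 (log2, adjusted p = 0.000287) and by 0.91 ± 0.22 with FIDAS-5 (adjusted p = 0.0212), and it was the 1 gene of the 32 that was higher with JQ1 than with FIDAS-5 (1.01 ± 0.22, adjusted p = 0.00817). The FIDAS-5 call was lost when vehicle library 1, 2 or 3 or FIDAS-5 library 1 or 2 was left out (adjusted p up to 0.0740).

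NFKBIB, a cytoplasmic inhibitor, moved in opposite directions. It stood at 5.05, 5.73 and 6.34 TPM with vehicle, 8.24, 8.20 and 10.2 TPM with FIDAS-5, and 3.67, 3.81 and 3.84 TPM with JQ1. The groups did not overlap. It rose by 0.56 ± 0.13 with FIDAS-5 and fell by 0.49 ± 0.13 with JQ1 (log2, adjusted p = 0.0169 for each). The FIDAS-5 rise was 0.25 (adjusted p = 0.253) once the GC trend was removed and also lost its call without FIDAS-5 library 3, and the JQ1 call was lost without vehicle library 3 or JQ1 library 1 or 2 (adjusted p up to 0.0720).

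NFKBIA, the rapidly resynthesised inhibitor, was the most abundant of the family with vehicle and was not called in any comparison. It stood at 30.9, 30.8 and 26.8 TPM with vehicle, 37.3, 26.8 and 33.7 TPM with FIDAS-5, and 26.0, 22.7 and 23.0 TPM with JQ1. The vehicle and FIDAS-5 libraries overlapped and the JQ1 libraries lay just below both. The JQ1 difference from vehicle was -0.29 ± 0.15 (adjusted p = 0.15), and -0.40 (adjusted p = 0.00987) with the GC trend removed. BCL3, a nuclear IkappaB that pairs with p50 and p52, varied widely within vehicle, at 25.3, 8.34 and 18.0 TPM. With FIDAS-5 it stood at 35.8, 28.3 and 33.4 TPM and with JQ1 at 8.79, 9.86 and 9.73 TPM. Its difference was called between the compounds (JQ1 against FIDAS-5 -1.67 ± 0.32, adjusted p = 0.00391) and not against vehicle (adjusted p = 0.0598 with FIDAS-5 and 0.128 with JQ1). Without vehicle library 2 the JQ1 difference was -1.10 (adjusted p = 0.00308), and without vehicle library 1 the FIDAS-5 difference was 1.32 (adjusted p = 0.0150). The FIDAS-5 difference also passed when replicate number was a block (adjusted p = 0.0443), after median-of-ratios scaling (0.0342) and after GC correction (0.0390). NFKBIE stood at 0.856 to 1.18 TPM with vehicle and 1.60 to 1.66 TPM with FIDAS-5, a rise of 0.42 ± 0.12 (adjusted p = 0.0376) that was called in 7 of 20 other settings.

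The kinases differed from gene to gene. Of 5 genes, IKBKG, MAP3K8 and MAP3K14 rose with FIDAS-5 (60%), beside 12.6% of all tested genes. With JQ1, IKBKG and MAP3K14 rose (40%) and IKBKE fell (20%), beside 19.0% and 19.4% of all tested genes. IKBKE, a noncanonical IkappaB kinase that also acts in interferon induction, stood at 1.21 to 1.94 TPM with vehicle, 1.89 to 2.95 TPM with FIDAS-5 and 0.130 to 0.252 TPM with JQ1. The JQ1 libraries were far below the rest, and the fall was 1.14 ± 0.16 (log2, adjusted p = 0.000861), 8.36 times in mean TPM. As with CCR1 and RELB, no JQ1 library reached 1 TPM, so the fall of IKBKE was partly built into its being tested. MAP3K8, the kinase that joins the pathway to ERK, stood at 4.89, 5.10 and 4.59 TPM with vehicle, 10.5, 7.84 and 7.38 TPM with FIDAS-5, and 6.15, 5.64 and 3.94 TPM with JQ1. Its FIDAS-5 libraries were highest, a rise of 0.69 ± 0.18 (log2, adjusted p = 0.0248) that lost its call without vehicle library 1, 2 or 3 or FIDAS-5 library 1 or 2 (adjusted p up to 0.0881).

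MAP3K14, the kinase that starts the noncanonical branch, was low and was called higher with both compounds. It passed the filter through FIDAS-5 and JQ1 libraries only, so its differences from vehicle were partly built into its being tested. It stood at 0.464 to 0.481 TPM with vehicle, 0.777 to 1.10 TPM with FIDAS-5 and 0.953 to 1.18 TPM with JQ1. The rise was 0.51 ± 0.12 with JQ1 (log2, adjusted p = 0.00804) and 0.38 ± 0.12 with FIDAS-5 (adjusted p = 0.0493), the latter 0.15 (adjusted p = 0.275) with the GC trend removed. The FIDAS-5 rise was called in 5 of the 14 other settings in which MAP3K14 was tested. IKBKG, the regulatory subunit of the kinase complex, stood at 4.63, 4.79 and 4.61 TPM with vehicle, 8.02, 5.99 and 6.45 TPM with FIDAS-5, and 8.39, 8.17 and 7.46 TPM with JQ1. Vehicle libraries were lowest. It rose by 0.67 ± 0.13 with JQ1 (log2, adjusted p = 0.00369) and by 0.45 ± 0.13 with FIDAS-5 (adjusted p = 0.0368). The FIDAS-5 rise was 0.17 (adjusted p = 0.337) with the GC trend removed and was called in 10 of 21 other settings. A near-identical pseudogene copy makes the level of IKBKG uncertain. IKBKB, the catalytic subunit, ranged from 1.22 to 2.76 TPM and was not called as fitted. It was called higher with JQ1 than with vehicle among protein-coding genes only and with the GC trend removed.

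Of 5 tested ubiquitin-linked regulators and adaptors, 1 rose with FIDAS-5 and 1 fell with JQ1 (20% each), beside 12.6% and 19.4% of all tested genes. TNIP1, which helps TNFAIP3 restrain the pathway, stood at 6.86, 6.29 and 5.83 TPM with vehicle, 8.88, 7.87 and 9.52 TPM with FIDAS-5, and 6.03, 6.38 and 6.46 TPM with JQ1. FIDAS-5 libraries were highest, a rise of 0.41 ± 0.12 (log2, adjusted p = 0.0403) that was called in 8 of 21 other settings. TNFAIP3, the deubiquitinase A20 and a classical feedback target, was at 1.67 to 1.84 TPM with vehicle, 1.96 to 2.97 TPM with FIDAS-5 and 1.21 to 2.05 TPM with JQ1, and was not called. With the GC trend removed it was called higher with FIDAS-5 (0.29, adjusted p = 0.0287). TRAF2, an adaptor of TNF receptors, stood at 4.66 to 5.09 TPM with vehicle, 3.16 to 4.60 TPM with FIDAS-5 and 3.13 to 3.48 TPM with JQ1. Both compound groups lay below vehicle, and the JQ1 fall of 0.41 ± 0.14 passed (log2, adjusted p = 0.0384), though not when any 1 vehicle or JQ1 library, or FIDAS-5 library 3, was left out (adjusted p up to 0.101).

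BIRC2 and TRAF3, which together keep MAP3K14 protein low, were at 7.62 to 15.4 TPM and 2.38 to 4.14 TPM and were not called as fitted. With the GC trend removed BIRC2 was called higher with JQ1 than with vehicle, and with the replicate block added TRAF3 was as well. BIRC3, the neighbour of BIRC2 on chromosome 11 and a classical NF-kappaB target, was too low to be tested. It stood at 0.0731 to 0.0988 TPM with vehicle, 0.328 to 0.755 TPM with FIDAS-5 and 0.0296 to 0.0669 TPM with JQ1, without overlap between the groups. TRAF1, another classical target, was at 0.294 to 0.403 TPM with vehicle or FIDAS-5 and at 0.518 to 0.810 TPM with JQ1. CYLD, a deubiquitinase, ranged from 0.535 to 1.68 TPM. Neither TRAF1 nor CYLD was tested.

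**Figure D4:**
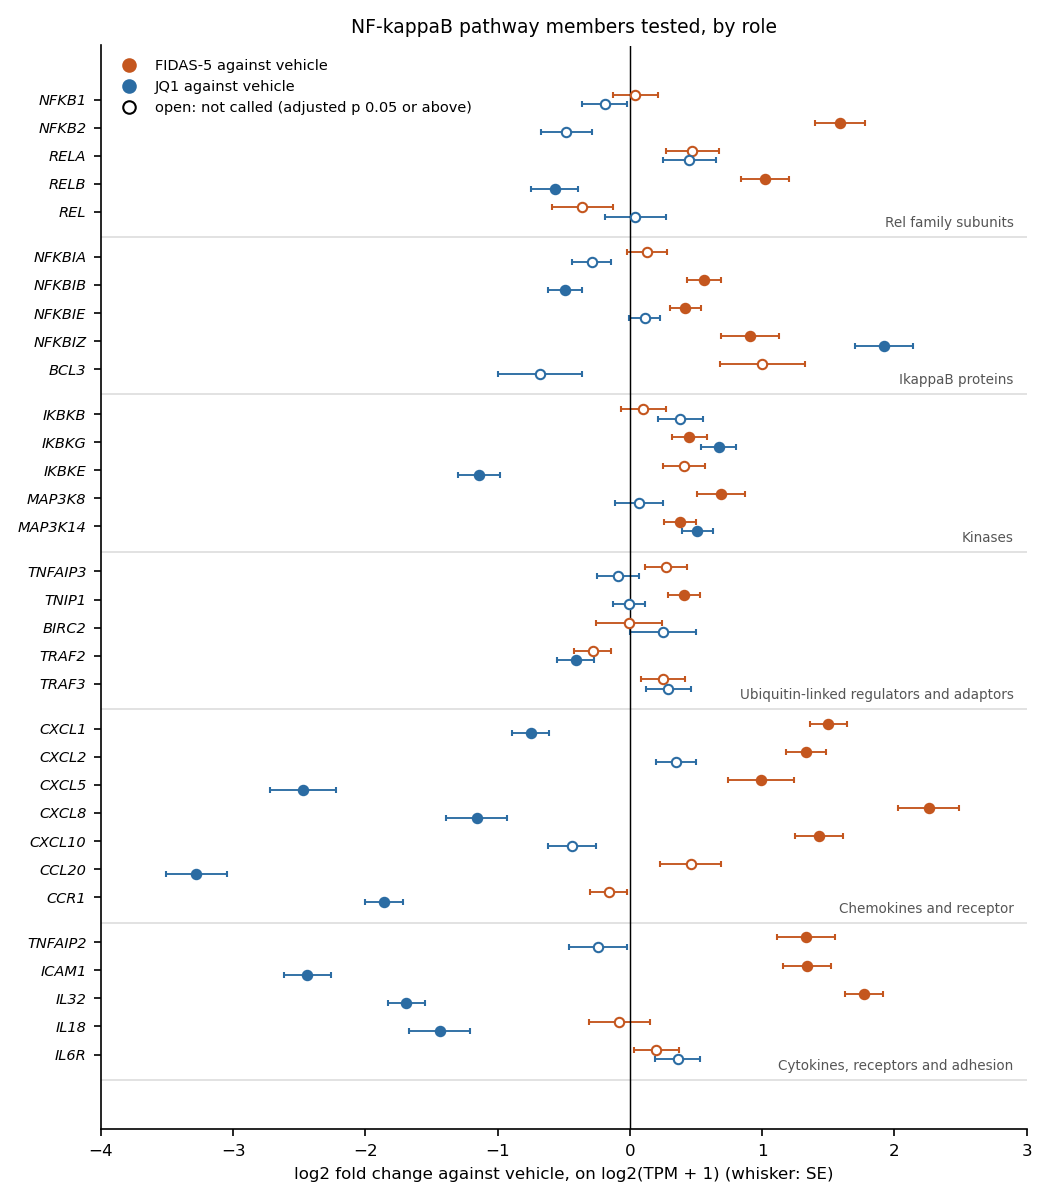
Log2 fold change against vehicle on log2(TPM + 1), with SE whiskers, for the 32 tested genes by role; orange is FIDAS-5, blue is JQ1, and open circles were not called. The FIDAS-5 points that were called all lie right of 0, and the JQ1 points of CCL20, CXCL5, ICAM1, CCR1 and IL32 lie farthest left while that of NFKBIZ lies farthest right among the JQ1 points.

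Over the 32 tested genes the median log2 fold change was 0.45 with FIDAS-5 and -0.27 with JQ1, and -0.80 for JQ1 against FIDAS-5. Over all tested genes these medians were -0.02, -0.01 and 0.05. Of the genes that rose with FIDAS-5, NFKB2, RELB, TNFAIP2, CXCL1, CXCL2, CXCL8, ICAM1 and IL32 were called in every other setting in which they were tested. Of those called with JQ1, this held for NFKBIZ, IKBKG, CXCL1, CXCL5, CXCL8, CCL20, CCR1, ICAM1, IL32, IL18 and IKBKE. Among these genes, CXCL2 passed the filter without its vehicle libraries, and CCR1 and IKBKE without their JQ1 libraries. CXCL10 with FIDAS-5 and MAP3K14 with JQ1 were called wherever they were tested, in 16 and 14 of 21 settings. Both fell under a filter of 5 TPM and in settings that left out libraries in which they were high. MAP3K14 also fell under the filter after median-of-ratios scaling.

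Of 38 other genes of signalling to NF-kappaB, some of which restrain it, 34 were tested. This list too was chosen with earlier results of these data known. With FIDAS-5, 10 rose (29.4%), 0 fell and 24 were not called, beside 12.6% of all tested genes that rose. With JQ1, 4 rose (11.8%) and 6 fell (17.6%), no more than the 19.0% and 19.4% of all tested genes. IRAK2, a signalling protein of the IL-1 receptor complex, had means of 19.7 ± 1.88 TPM with vehicle, 51.5 ± 9.46 TPM with FIDAS-5 and 18.9 ± 0.666 TPM with JQ1 (SD, n = 3). It rose with FIDAS-5 (log2 fold change 1.33, adjusted p = 0.000647). The lymphotoxin receptor LTBR, which feeds the noncanonical branch, rose by 1.19 with FIDAS-5 (adjusted p = 0.00101) and fell by 0.49 with JQ1 (adjusted p = 0.0315). The adaptor MYD88 rose by 0.74 (adjusted p = 0.00331) and fell by 1.04 (adjusted p = 0.000285) with the 2 compounds, and the TNF receptor TNFRSF1A rose by 0.66 (adjusted p = 0.0146) and fell by 0.76 (adjusted p = 0.00377). SHARPIN and RBCK1, subunits of the linear ubiquitin ligase, rose with FIDAS-5 by 0.58 (adjusted p = 0.0248) and 0.85 (adjusted p = 0.00570). SHARPIN also rose with JQ1, by 0.67 (adjusted p = 0.00747). TNIP2, one of the restraining genes, rose by 0.44 with FIDAS-5 (adjusted p = 0.0484) and by 0.48 with JQ1 (adjusted p = 0.0204).

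A second list, chosen in the same way, held 38 textbook NF-kappaB targets outside the 40 genes, of which 22 were tested. Of these, 9 rose (40.9%) and 0 fell with FIDAS-5, beside 12.6% and 7.60% of all tested genes. With JQ1, 6 rose (27.3%) and 5 fell (22.7%), shares near the 19.0% and 19.4% of all tested genes. IRF1, a transcription factor shared with interferon signalling, had means of 2.06 ± 0.387 TPM with vehicle and 10.1 ± 1.32 TPM with FIDAS-5, a rise of 1.86 (log2, adjusted p = 0.000118). PLAU, the urokinase, rose with FIDAS-5 by 1.58 (adjusted p = 0.000170) and with JQ1 by 1.03 (adjusted p = 0.000727). GADD45B, a stress gene, rose by 0.96 (adjusted p = 0.00109) and 1.29 (adjusted p = 0.000113) with FIDAS-5 and JQ1. IER3, an early response gene, fell by 2.18 with JQ1 (adjusted p = 1.45e-05), from 20.8 ± 2.59 to 3.79 ± 0.315 TPM.

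Markers of other cell types were measured because several of the genes above are also leukocyte or endothelial genes. The 9 leukocyte markers summed to 115 to 141 TPM with vehicle, 253 to 312 TPM with FIDAS-5 and 19.4 to 28.4 TPM with JQ1. Most of this sum was LYZ, the lysozyme gene, with means of 113, 253 and 12.4 TPM. PTPRC, CD3E, ITGB2 and CSF1R were under 1 TPM in every library, and none of the 9 was at 0 in all of them. Of 4 endothelial markers CDH5 was listed at 0 throughout, and the sum, 6.52 to 9.83, 15.3 to 16.6 and 1.28 to 1.61 TPM, was nearly all PECAM1. The fibroblast and stellate markers summed to 1.08 to 1.99 TPM. Of the 4 leukocyte markers tested, LYZ, CD68 and LCP1 rose with FIDAS-5, LYZ and CD68 fell with JQ1, and CD14 was not called. PECAM1 rose and fell likewise. These are the directions of ICAM1, IL32 and CXCL8, and the part of these markers in those results was not tested.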

How the data were processed

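RNA was sequenced from 9 Huh7 libraries in 3 groups of 3, and groups were taken from the treatment labels. RNA was extracted on columns and libraries were made by a commercial company, per the labels' protocols. The authors deposited TPM per gene symbol, made with Salmon against hg38, per the submitters' processing notes; the Salmon version and the annotation are not given in the sources used here. TPM were scaled to the same total in each library and keep no read counts, so neither depth nor counting error nor a detection limit can be given.

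TPM were transformed to log2(TPM + 1), and 13573 genes that reached 1 TPM in 3 or more libraries were tested. In R 4.3.3, limma 3.58.1 estimated group means and 3 two-sided contrasts from the 9 libraries together, with moderated variances (6 residual and 2.86 prior degrees of freedom). A call required an adjusted p (Benjamini-Hochberg over these genes) under 0.05. The script was tested on simulated data. With 3 libraries a group, an exact permutation of 1 gene cannot go below p = 0.1. Promoters and coordinates came from RefSeq tables (GRCh38.p14), and the promoter sequences were searched in Python 3.11.15. GC content was the median over the GENCODE transcript sequences of each gene name. Motif matches were not tested. The members and lists were chosen with earlier results of these data known. Any of the 40 members could be named. Of the other pathway genes and targets, those called against vehicle and averaging 5 TPM or more in the higher group could be named, at most 4 per list and comparison by the smallest adjusted p. Further markers (hepatocyte, leukocyte, endothelial, fibroblast and stellate, cholangiocyte) served as a check of the cell type, and the 4 cholangiocyte markers, with KRT7 listed at 0 throughout, summed to 22.7 to 48.4 TPM. The value of 1 leukocyte marker is not reported here. In all, 21 alternative settings were run, 1 of them (leaving out the FIDAS-5 and JQ1 libraries numbered 3 together) chosen after the data were seen.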

Additional observations from a re-analysis of the deposited data

How the results depend on the processing

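Across 21 other settings, no called fold change of the 40 genes reversed: 941 of the gene, comparison and setting combinations kept their side of the threshold and 94 lost it. The count of genes that rose with FIDAS-5, 17, depended on single libraries. It was 11 without vehicle library 2, 10 without vehicle library 3, 9 without FIDAS-5 library 1, 11 without FIDAS-5 library 2, 11 without FIDAS-5 library 3 and 11 without the treated libraries numbered 3, and ranged from 9 to 16 with each of the 9 libraries left out in turn. With the GC trend removed, or with this and the replicate block, 1 gene (TRAF2) fell with FIDAS-5, in place of 0. Of all genes, 2742 were called with FIDAS-5, 4416 with the GC trend removed, 4751 with the block as well, and 1461 (without FIDAS-5 library 3) to 3304 with 1 library left out, with 1634 without vehicle library 3. Quantile normalization gave 1904 higher and 1756 lower, beside 1711 and 1031.

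With JQ1 the 3 genes that rose became 5 among protein-coding genes only, with the GC trend removed and with the block added to it, and 2 to 4 with 1 library left out. With 1 library left out the 12 that fell ranged from 9 to 13, and all genes called, 5219, from 3781 to 5173. Over all settings these ranges were 8 to 16 and 3639 to 7435. For JQ1 against FIDAS-5, the 1 higher gene became 2 with no filter, among protein-coding genes, with the GC trend removed, with the block added to it and without JQ1 library 3 (range 1 to 2). The 18 lower ranged from 15 to 18 with 1 library left out and from 13 (filter of 5 TPM) to 23 (protein-coding genes only) over all settings. All genes called, 4726, became 2991 with a filter of 5 TPM, 7142 with the block and GC removal, and 3247 to 5287 with 1 library left out. The cause of these shifts was not tested, except that a higher filter tests fewer genes and a left-out library leaves fewer samples.

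The labels share replicate numbers but do not say that a number marks a shared culture or day. Departures of same-numbered libraries correlated at -0.08 to 0.42. Between FIDAS-5 and JQ1 libraries they correlated at 0.10 to 0.42 with the same number and at -0.35 to 0.18 with different numbers. The numbers were not taken to pair the libraries, and the replicate block was run as another setting. With it, 15 of the 32 genes rose with FIDAS-5, 13 fell with JQ1 and 18 were lower with JQ1 than with FIDAS-5. TPM keep no depth, which limits what can be said of genes under 1 TPM such as BIRC3, CXCL3 and TRAF1.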
